A study of Mus musculus with 8 samples.

Results

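Immune checkpoint receptors and ligands were followed here as 9 listed genes: the receptors Pdcd1, Ctla4, Lag3, Havcr2 and Tigit, and the ligands Cd274, Pdcd1lg2, Cd80 and Cd86. They are 9 of the 32502 genes counted in the series, and all 9 were found in at least 30 cells. The members were taken as a list of names. The data are 8 Drop-seq libraries, a method in which single cells are captured in droplets with barcoded beads and the 3′ ends of their messenger RNAs are counted as unique molecular identifiers (UMIs). All mice were C57BL/6 (C57BL/6N in the study's methods), either wild-type littermates (WT, Acod1 +/+, a gene also called Irg1) or knock-outs (KO, Acod1 -/-), in which a cassette is inserted into the gene for the enzyme that makes itaconate. For each genotype there was 1 library of naïve brain and 1 of a GL261 tumour, a mouse glioma line of which 500 cells were placed into the brain (the right striatum by the labels and the frontal cortex by the study's methods), at each of 3 stages by volume: early (5 to 10 mm3), intermediate (20 to 25 mm3) and late (30 to 35 mm3). Each tumour library came from 1 mouse and each naïve library pooled 2 mice. The WT mouse was female and the KO mouse male at the early stage, the reverse held at the intermediate stage, and both mice were male at the late stage. Sex and genotype therefore cannot be told apart at the early and intermediate stages, and mouse and genotype at any stage.

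Checkpoint genes set how strongly a T cell responds to antigen. Cd80 and Cd86 on antigen-presenting cells bind the activating receptor Cd28 and, with higher affinity, the inhibitory receptor encoded by Ctla4. Pdcd1 encodes PD-1, an inhibitory receptor induced on stimulated T cells, and its ligands PD-L1 and PD-L2 are encoded by Cd274 and Pdcd1lg2. Interferon gamma is a strong inducer of PD-L1 in many cell types, whereas PD-L2 is largely restricted to myeloid cells. Lag3 encodes an inhibitory receptor that binds MHC class II, Havcr2 encodes TIM-3, which is carried by T cells and by myeloid cells including microglia, and Tigit encodes an inhibitory receptor of T cells and natural killer cells.

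The deposited libraries held between 2885345 and 9950713 UMIs, and 5698 cells passed the filters, between 454 and 1000 per library, with a median of 2607.5 to 5642.5 UMIs per cell. Cells were clustered without the 9 members and named from marker genes, so that no member took part in defining a class. Names rebuilt in this way may differ from those of the study. Microglia-like cells numbered 377, of which 200 came from naïve and 177 from tumour-bearing libraries. Only the latter match TAM I of the study, which keeps naïve microglia apart. Macrophage-like cells (TAM II) numbered 414, beside 188 lymphocytes, 24 dendritic-like cells, 3401 tumour cells, 369 oligodendrocytes, 292 astrocytes and 327 cells of an endothelial class. A group of 36 cells stayed unnamed, with Ccl17, Il1b, Napsa, Plet1 and Clec10a as its leading genes. Levels are given as CPM, the counts-per-million of all UMIs in the class. Summed microglia markers lay between 14330 and 29220 CPM in the microglia-like cells of the 8 libraries. The 6 lymphocytes of the WT intermediate library carried only 2 of 6 T cell markers, at 859.5 CPM, against 4867 to 5726 in the other 4 libraries with at least 5 lymphocytes. Acod1 itself, summed over microglia-like and macrophage-like cells, gave no UMI in the naïve libraries. It gave 160.3, 48.9 and 21.6 CPM in the libraries labelled WT early, intermediate and late, and 57.7, 11.6 and 61.1 in those labelled KO. The late libraries thus lay in the opposite order to their labels, but the WT late value rests on 4 UMIs. Its exact counting limits, 5.89 to 55.3 CPM, overlap those of KO late, 42.1 to 85.8 CPM (33 UMIs). Macrophage-like cells were 22 of the 42 cells summed in WT late and 110 of the 131 in KO late. The part of this cell mix in the order was not tested. Whether the KO allele still yields a counted 3′ end was not tested, and libraries are named here by their labels.

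On GRCm38 with the GENCODE M21 annotation, Pdcd1 lies on the minus strand at chr1:94038305-94052553 and Ctla4 on the plus strand at chr1:60887000-60915832. Lag3 is on the minus strand at chr6:124904361-124911705, Havcr2 on the plus strand at chr11:46454935-46481255 and Tigit on the minus strand at chr16:43648867-43664146. Both Cd28-family ligands are on the same chromosome, Cd80 at chr16:38455561-38496335 on the plus strand and Cd86 at chr16:36603869-36666081 on the minus strand. Cd274 at chr19:29367455-29388095 and Pdcd1lg2 at chr19:29410919-29471161 are neighbours on the plus strand. The sequences directly upstream of these neighbouring ligand genes are shown because their levels, given further on, were spread over cell classes in different ways. Both are the 250 bases before the RefSeq start on GRCm38.p6, plus strand, at chr19:29367188-29367437 and chr19:29410669-29410918, in lower case with any GC box (GGGCGG) in capitals.
Cd274: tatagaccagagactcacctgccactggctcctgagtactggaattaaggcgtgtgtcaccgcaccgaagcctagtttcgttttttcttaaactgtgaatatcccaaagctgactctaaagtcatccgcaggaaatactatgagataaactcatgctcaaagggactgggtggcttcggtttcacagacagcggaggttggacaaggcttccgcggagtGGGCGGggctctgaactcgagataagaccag
Pdcd1lg2: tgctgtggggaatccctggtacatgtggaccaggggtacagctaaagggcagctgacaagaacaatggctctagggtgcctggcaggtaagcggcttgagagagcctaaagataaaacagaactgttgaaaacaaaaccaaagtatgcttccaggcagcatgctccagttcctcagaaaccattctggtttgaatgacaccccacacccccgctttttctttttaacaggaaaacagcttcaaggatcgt
The Cd274 window holds 11 CpG dinucleotides and 1 GC box, and the Pdcd1lg2 window 3 CpG and no GC box, against a median of 6 CpG over all windows. Of 32851 windows of this length, searched on both strands, 32.7% hold GGGCGG, and among the 7 members with a window it was found at Cd274 and Pdcd1. The pattern TTCNNNGAA occurs in 7.02% of windows, and a pair of GAAA blocks separated by any 2 bases in 2.98%, and neither was found in the windows of these 7 members. These letter matches describe the windows and show no binding.

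The members divided by cell class in the 6 tumour-bearing libraries. CPM levels are given beside the share of cells with at least 1 UMI, and intervals are exact 95% limits that cover counting error only. Ctla4, Pdcd1 and Tigit were mostly lymphocyte transcripts, with 87.9%, 79.6% and 64.8% of their UMIs in the 187 lymphocytes of these libraries. Lag3 had 55.9% of its UMIs in the 177 microglia-like cells and 35.6% in lymphocytes. Havcr2 and Cd86 were spread over the myeloid classes, with 43.6% and 51.6% of their UMIs in the 413 macrophage-like cells. Pdcd1lg2 and Cd80 had 59.8% and 48.0% of their UMIs there. Tumour cells held 48.4% of the Cd274 UMIs and 32.4% of the Tigit UMIs (23 UMIs, or 0.784 CPM), both at a low level per cell. As a background, the 561 glial, neuronal and vascular cells of tumour-bearing libraries (median 2697 UMIs) carried Cd274 in 9.80% and Cd80 in 1.60% of cells, and the other members in at most 0.535%. In the 697 such cells of naïve libraries (median 2843 UMIs), Pdcd1, Ctla4, Tigit and Pdcd1lg2 were found in no cell and Cd274 in 1.58%.

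**Figure D1:**
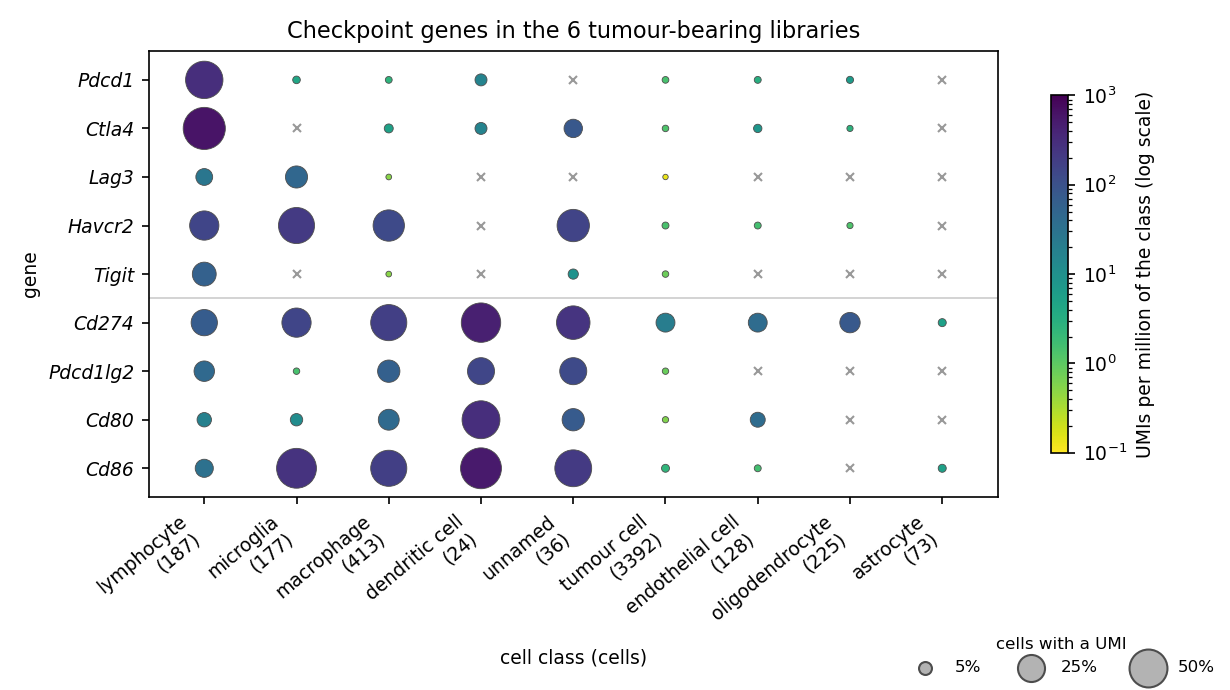
Levels of the 9 members (rows) by cell class (columns, number of cells in brackets) in the 6 tumour-bearing libraries. Colour gives CPM of the class on a log scale, dot size the share of cells with a UMI, and a cross marks no UMI. Ctla4, Pdcd1 and Tigit are darkest in lymphocytes, Lag3 in microglia-like cells, and the ligands in the 24 dendritic-like cells.

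Ctla4 was the most lymphocyte-bound of the receptors. Its level in lymphocytes was 614.0 CPM in the WT early library, 0 in the 6 cells of WT intermediate, and 377.4, 912.7 and 622.7 CPM in KO early, intermediate and late. The 4 lymphocytes of WT late carried no UMI of any member, where 3 UMIs would equal 251.9 CPM. The 4 libraries with at least 32 lymphocytes were all high, and between 57.1% and 78.1% of their lymphocytes had a Ctla4 UMI. Pdcd1 followed the same libraries, at 436.3 CPM in WT early, 0 in WT intermediate, and 251.6, 301.1 and 192.7 CPM in the 3 KO libraries. Tigit was lower in the libraries with at least 32 lymphocytes, at 73.4 CPM in WT early and 48.4, 69.5 and 44.5 CPM in the KO libraries. In WT intermediate it was 23.9 CPM (1 UMI). For Ctla4, WT early lay among the KO values. For Pdcd1 and Tigit it lay above the 3 KO libraries, and the genotypes overlapped only through the 6 cells of WT intermediate and the 4 of WT late. In WT intermediate 3 UMIs would equal 71.6 CPM.

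Lymphocytes were compared with macrophage-like cells within the 5 libraries that had at least 5 of each (edgeR's quasi-likelihood test, p-values adjusted over 6036 genes by Benjamini-Hochberg). Of 8 members tested, 3 were higher and 3 lower in lymphocytes, while 40.8% of all genes tested were called, 19.6% as higher and 21.2% as lower. Ctla4 was 6.44 log2 units higher (SE 0.38, adjusted p 8.15e-14). Pdcd1 was 6.28 higher (SE 0.49, adjusted p 2.57e-11) and Tigit 5.64 higher (SE 0.77, adjusted p 7.15e-07). Macrophage-like cells of all tumour-bearing libraries held only 10 Ctla4, 5 Pdcd1 and 1 Tigit UMI. These receptors passed the low-count filter through their lymphocyte counts, so their entry to the test depended on the class then called higher. The antigen-presenting side was lower, Cd86 with a log2 difference of -2.66 (SE 0.36, adjusted p 6.83e-07), Cd274 with a log2 difference of -1.59 (SE 0.26, adjusted p 1.00e-05) and Cd80 with -1.49 (SE 0.48, adjusted p 0.0142). Havcr2 and Pdcd1lg2 gave log2 differences of 0.05 (SE 0.24) and -0.46 (SE 0.46) and did not pass the test. Lag3 fell under the low-count filter of this comparison and was not tested.

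Of all 188 lymphocytes, 174 had at least 1 UMI of a T cell marker, 1 of them in the KO naïve library. Among these, 66.7% carried Ctla4, 52.3% Pdcd1, 30.5% Havcr2, 20.7% Tigit and 9.77% Lag3. The 14 lymphocytes with no T cell UMI carried none of Pdcd1, Ctla4, Lag3 and Tigit. The T cells differed by subset. The 74 cells with Cd8a, which marks cytotoxic T cells, had Pdcd1 at 458.3 CPM (389.4 to 535.8) and in 78.4% of cells. The 54 cells with Cd4, which marks helper and regulatory T cells, had Pdcd1 at 292.2 CPM (234.1 to 360.5) and Ctla4 at 940.5 CPM (833.6 to 1057).

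Foxp3, the defining transcription factor of regulatory T cells, was found in 18 T cells, and all 18 also carried Ctla4. Their Ctla4 level was 1256 CPM (1074 to 1460), which was 2.39 times (1.97 to 2.89) that of the T cells without Foxp3. It was higher in the Foxp3 cells of each of the 4 libraries that had any, at 2099 against 575.4 CPM in WT early (4 cells), 1247 against 416.7 in KO early (1 cell), 1242 against 695.0 in KO intermediate (9 cells) and 1004 against 595.6 in KO late (4 cells). Pdcd1 went the other way, with a ratio of 0.440 (0.267 to 0.691) over the pooled cells, and was lower in the Foxp3 cells of 3 of these 4 libraries. Havcr2 had a ratio of 0.387 (0.172 to 0.764). For Tigit and Lag3 the ratios were 1.55 (0.729 to 3.06) and 1.37 (0.392 to 3.91), intervals that span equal levels. Foxp3 is itself a low-count transcript, so cells without a Foxp3 UMI may still express it, and 6 cells carried both Foxp3 and Cd8a.

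**Figure D2:**
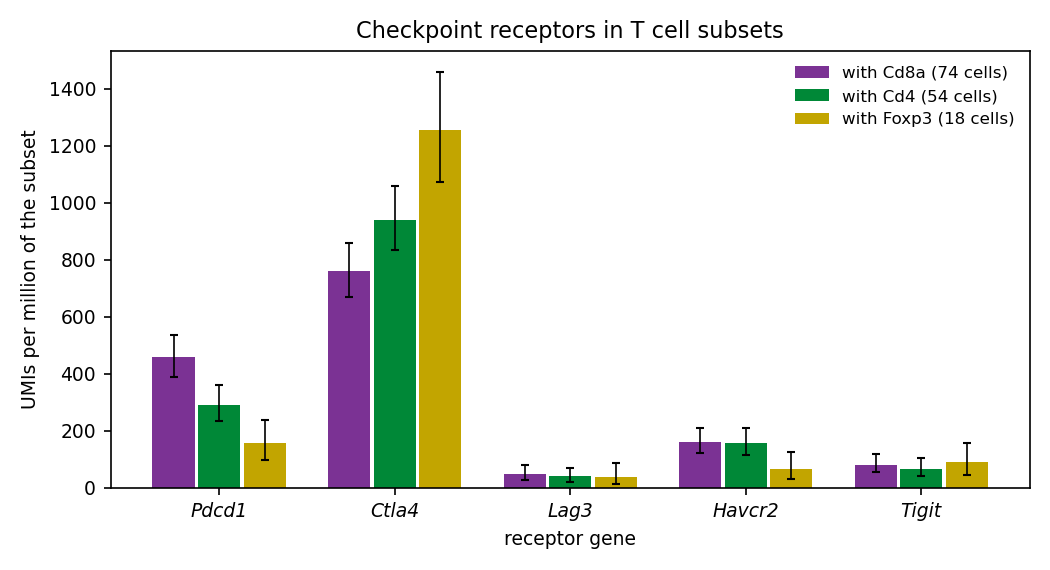
Levels of the 5 receptors in the T cells with Cd8a (74 cells), Cd4 (54) and Foxp3 (18) among all lymphocytes, in CPM of the subset. Error bars are exact 95% Poisson intervals for counting error, and a cell can belong to more than 1 subset. Pdcd1 is tallest in the Cd8a cells and Ctla4 in the Foxp3 cells.

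Receptors were often found together in a T cell. Of the 174 T cells, 35 carried none of the 5 receptors, 41 carried 1, 43 carried 2, 36 carried 3, 17 carried 4 and 2 carried all 5. Ctla4 was found in 73 of the 91 cells with Pdcd1 (80.2%) and in 43 of the 83 without (51.8%). Havcr2 was found in 41 of 91 (45.1%) against 12 of 83 (14.5%). Depth moved with this: cells with a Pdcd1 UMI had a median of 3208 UMIs and those without 2595, and cells with Lag3 had 5045 against 3032. How much of the joint detection follows depth was not tested.

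Outside lymphocytes Ctla4 and Pdcd1 transcripts were few and mostly came with T cell markers. Of the 8 macrophage-like cells with a Ctla4 UMI, 5 also had a T cell UMI, against 7 of the 405 without, and of the 3 with Pdcd1 all 3 did. In the unnamed cells the 4 with Ctla4 all had T cell UMIs. Of tumour cells, 17 of the 20 with Ctla4 and 17 of the 23 with Pdcd1 carried T cell UMIs. For Tigit this was so in 7 of 20 tumour cells (35%), against 3.97% of those without. No microglia-like cell carried Ctla4 or Tigit. With the doublet removal of the alternative processing, Pdcd1 in tumour cells went from 1.47 to 0.787 CPM and Ctla4 from 1.33 to 0.712 CPM. In 5 of the tumour-bearing libraries the cells removed were those with the highest Scrublet scores, most of them not marked as doublets. The part of other cells' RNA in the remaining UMIs was not tested.

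Havcr2 was highest in microglia-like cells over the pooled tumour-bearing libraries, though not in each of these libraries. Its level in microglia-like cells was 285.2 and 246.7 CPM in the naïve WT and KO libraries. With a tumour it was 266.7, 287.8 and 112.5 CPM in WT early, intermediate and late, and 140.9, 201.8 and 151.3 CPM in the KO libraries. The highest tumour-bearing value exceeded both naïve values, so the groups overlapped. In the test of tumour-bearing against naïve microglia-like cells the log2 difference was -0.41 (SE 0.34, edgeR adjusted p 0.447). Macrophage-like cells held 111.1, 176.6 and 114.3 CPM in the WT and 90.7, 139.0 and 149.8 CPM in the KO libraries. Pooled, microglia-like cells had 1.67 times their level (1.35 to 2.06), and the test within libraries gave -0.62 log2 units for macrophage-like against microglia-like cells (SE 0.23, edgeR adjusted p 0.0541), just outside the threshold. Without KO late it was -0.77 with an edgeR adjusted p of 0.0286, and with at least 500 genes per cell the adjusted p was 0.0396, both under it. Lymphocytes had 158.3 CPM in WT early and 135.5, 78.8 and 207.6 CPM in the KO libraries, around the macrophage-like values. Their 358.1 CPM in WT intermediate came from 15 UMIs in 2 cells. No Havcr2 UMI was found in the 24 dendritic-like cells, where 3 UMIs would equal 49.1 CPM and the exact upper limit is 60.4 CPM.

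Lag3 was a microglial transcript in the naïve as in the tumour-bearing brain. Microglia-like cells had 50.03 CPM in the WT naïve library (10 UMIs in 87 cells) and 55.6 CPM in the KO naïve library (16 UMIs in 113 cells). The WT tumour libraries gave 49.8 CPM at the early stage (14 UMIs), 57.6 at the intermediate stage (1 UMI in 5 cells) and 22.5 at the late stage (2 UMIs). The KO tumour libraries gave 14.1 CPM (1 UMI), 94.2 CPM (14 UMIs) and 12.6 CPM (1 UMI). The 4 tumour libraries with 1 or 2 UMIs spanned 12.6 to 57.6 CPM, so that neither a stage nor a genotype stood apart, and the naïve values lay inside the tumour-bearing range. The mean over libraries was 52.8 ± 3.93 CPM (SD, n = 2) in naïve and 41.8 ± 31.8 CPM (SD, n = 6) in tumour-bearing microglia-like cells. The pooled ratio of tumour-bearing to naïve was 0.902 (0.523 to 1.57). A UMI of Lag3 was found in 16.4% of the tumour-bearing and 12% of the naïve microglia-like cells. After each cell was thinned to 1500 UMIs these shares were 3.95% and 8.50%, the opposite order, so no order is read from them.

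Macrophage-like cells held 1 Lag3 UMI in all, in KO intermediate, or 0.507 CPM. The level in microglia-like cells was 94.8 times higher with a wide counting interval (15.9 to 3858). It was higher in microglia-like cells in 6 of 6 tumour-bearing libraries, by 41.3 ± 30.9 CPM (SD). A two-sided exact permutation test of the 6 library pairs gave a p of 0.03125, the smallest that 6 pairs allow. In WT intermediate, WT late, KO early and KO late the microglial level rests on 1 or 2 UMIs. The members were chosen with earlier results of these data known, so this p is not an independent test. In lymphocytes Lag3 gave 27.0 CPM in WT early, 0 in WT intermediate, and 19.4, 46.3 and 14.8 CPM in the KO libraries. The ratio of microglia-like cells to lymphocytes was 1.76 (0.986 to 3.19), an interval that reaches equal levels. Of the 53 microglia-like cells with Lag3, 1 also had a T cell UMI, and none of the 24 in naïve libraries did. Without the microglia-like cells that carry a T cell UMI the level was 50.7 and 56.0 CPM in the naïve libraries and 48.5 CPM in WT early. T cell markers summed to at most 42.7 CPM in the microglia-like cells of any library. The 697 other brain cells of the naïve libraries held 2 Lag3 UMIs, or 0.812 CPM.

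**Figure D3:**
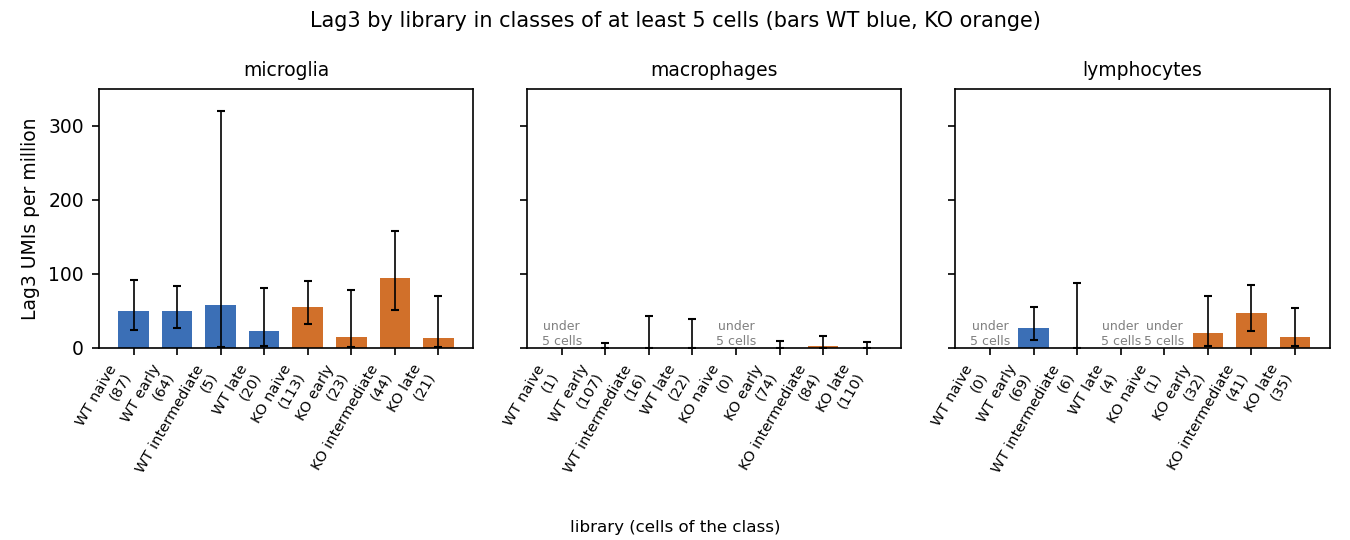
Lag3 level by library in microglia-like cells, macrophage-like cells and lymphocytes, in CPM of the class, with the number of cells in brackets and WT libraries in blue and KO in orange. Error bars are exact 95% Poisson intervals for counting error. All 8 libraries have Lag3 in microglia-like cells, while macrophage-like cells have it in 1 library.

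Cd274, encoding PD-L1, was detected in all 9 classes of the dot plot, at levels that went down from dendritic-like cells (441.8 CPM, 27 UMIs in 24 cells) over the unnamed cells (254.3 CPM), macrophage-like cells (178.0 CPM) and microglia-like cells (151.5 CPM) to oligodendrocytes (77.9 CPM), lymphocytes (71.7 CPM), the endothelial class (40.6 CPM), tumour cells (21.1 CPM) and astrocytes (5.31 CPM, 1 UMI). In microglia-like cells Cd274 rose with the tumour. Their Cd274 level was 10.0 and 6.95 CPM in the WT and KO naïve libraries. With a tumour it was 163.6 CPM in WT early, 0 in the 5 cells of WT intermediate, 90.0 in WT late, and 155.0, 181.7 and 151.3 CPM in KO early, intermediate and late. All tumour-bearing libraries with at least 20 microglia-like cells lay above both naïve libraries, and in WT intermediate 3 UMIs would equal 172.7 CPM, so its 0 does not show a low level.

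Pooled, tumour-bearing microglia-like cells had 18.5 times (7.003 to 69.1) the naïve Cd274 level. Of the 3 members with enough counts for the test across libraries, Cd274 alone passed it, while 16.5% of the 3251 genes tested were called, 9.75% as higher. Naïve microglia-like cells held 4 Cd274 UMIs in all, so the gene passed the low-count filter through its tumour-bearing counts. Its entry to the test thus depended on the group then called higher. The log2 difference of Cd274 was 4.08 (SE 0.66, edgeR adjusted p 0.000454). Without the KO naïve library it was 3.49 with an adjusted p of 0.0981, no longer under the threshold. Cd86 gave a log2 difference of 0.23 (SE 0.37, edgeR adjusted p 0.711). At 1500 UMIs per cell, 1.5% of naïve and 18.1% of tumour-bearing microglia-like cells had a Cd274 UMI.

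Macrophage-like cells had Cd274 at 188.7, 70.6 and 93.6 CPM in WT early, intermediate and late, and at 194.1, 169.0 and 195.4 CPM in the KO libraries. The level did not differ from that of microglia-like cells beyond its error, with a log2 difference of 0.18 (SE 0.23, edgeR adjusted p 0.588). WT intermediate and WT late were the lowest libraries, while WT early lay among the KO values.

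Tumour cells carried Cd274 at 38.8, 9.62 and 4.92 CPM in WT early, intermediate and late, in 24.4%, 6.26% and 3.45% of cells. In the KO libraries the values were 30.4, 35.1 and 29.7 CPM, in 13.1%, 17.6% and 16.3% of cells. The KO values lay between 29.7 and 35.1 CPM, while the WT values fell on both sides of them. The ratio of KO to WT was 0.785 (0.6 to 1.03) at the early, 3.65 (2.77 to 4.84) at the intermediate and 6.03 (3.99 to 9.40) at the late stage, with counting intervals for 1 library each. Over the 3 stages the log2 difference was 1.38 (SE 0.52, edgeR p 0.0304, adjusted p 0.682), which did not pass the threshold. In this comparison, added after the data were seen, 0.0139% of 14391 genes were called. Without the WT early library the log2 difference was 2.23, and without KO early it was 2.22. Either omission takes out the early pair, the stage at which the KO level was not higher, and leaves 1 residual degree of freedom. These fits therefore do not test the difference over the 3 stages. Against macrophage-like cells of the same libraries, tumour cells had less Cd274 (log2 difference -3.11, SE 0.20, edgeR adjusted p 9.60e-11).

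Pooled over libraries, myeloid RNA was more frequent in the tumour cells with Cd274. Of 399 tumour cells with Cd274, 148 (37.1%) carried a UMI of Tyrobp, Fcer1g, Lyz2, Ctss or C1qa, against 21.5% of those without. Libraries differed in this: 864 of 926 tumour cells in WT intermediate and 251 of 513 in KO early had no such UMI. The part of library mix and depth in the pooled shares was not tested. In the tumour cells with no such UMI the Cd274 level was 41.1, 9.07 and 3.73 CPM in the WT and 26.6, 35.9 and 30.4 CPM in the KO libraries, close to the values over all tumour cells. For Cd86, in contrast, 42 of the 45 tumour cells with a UMI (93.3%) also carried a myeloid UMI.

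Oligodendrocytes, which make myelin, had no Cd274 UMI in the 2 naïve libraries (144 cells). In tumour-bearing libraries they had 127.9 CPM in WT early (37 UMIs, 18 of 83 cells), 10.7 in WT intermediate, 0 in WT late, and 22.7, 88.0 and 132.5 CPM in KO early, intermediate and late. WT early and KO late were highest and WT late held no UMI. Against a floor of 3 counts the pooled level was at least 12.7-fold higher than in naïve brain. WT early gave 37 of the 59 UMIs, and without it the pooled level went from 77.9 to 47.03 CPM, at least 7.67-fold higher. The test across libraries, added after the data were seen, gave an edgeR p of 0.00397 and an adjusted p of 0.113, and 2.43% of 2634 genes were called. In the oligodendrocytes with no myeloid UMI the levels were 106.2, 11.02 and 0 CPM in the WT and 44.1, 100.4 and 143.7 CPM in the KO libraries. Lymphocyte markers summed to 141.7, 0 and 82.9 CPM in the oligodendrocytes of WT early, intermediate and late and to 0, 0 and 13.3 CPM in the KO libraries, and their part in the result was not tested. Cd80 and Cd86 gave no UMI in tumour-bearing oligodendrocytes.

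The library order of Cd274 can be set beside that of Irf1, a transcription factor induced by interferons, from the list of the interferon gamma axis. In tumour cells Irf1 was 244.6, 94.4 and 54.3 CPM in WT early, intermediate and late and 266.8, 215.5 and 269.7 CPM in the KO libraries. In macrophage-like cells it was 204.5, 58.9 and 31.2 CPM in the WT and 179.0, 188.1 and 290.9 CPM in the KO libraries. For both genes and in both of these classes, WT intermediate and WT late were the lowest of the 6 libraries. Irf1 in microglia-like cells was 284.5, 0 (5 cells) and 202.5 CPM in the WT and 281.8, 228.8 and 252.2 CPM in the KO libraries. In oligodendrocytes it was 58.8, 10.7 (1 UMI) and 0 CPM in the WT and 68.05, 9.77 (1 UMI) and 172.3 CPM in the KO libraries. There KO intermediate was not above WT intermediate for Irf1, unlike for Cd274. These classes share their libraries, so the orders are not independent. Ifng itself was a lymphocyte transcript here, at 316.6 CPM in WT early, 0 in WT intermediate and 774.1, 51.0 and 192.7 CPM in KO early, intermediate and late. In the test of tumour-bearing against naïve microglia-like cells, Irf1 was higher (log2 difference 2.65) and Ifngr1 lower (-1.85).

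**Figure D4:**
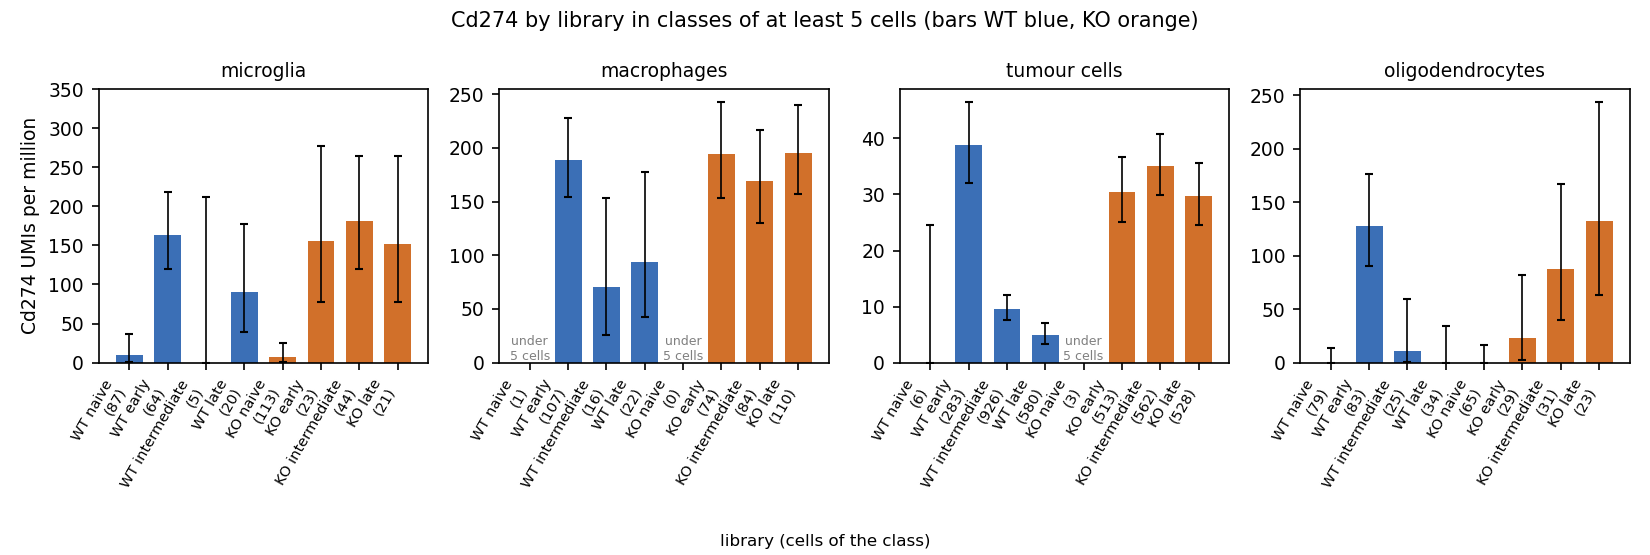
Cd274 level by library in microglia-like cells, macrophage-like cells, tumour cells and oligodendrocytes, in CPM of the class, each panel with its own axis from 0. Numbers of cells stand in brackets, WT is blue and KO orange, and error bars are exact 95% Poisson intervals for counting error. The naïve bars of microglia-like cells are at most 10.0, and among tumour cells of tumour-bearing libraries WT intermediate and WT late are the lowest bars.

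Pdcd1lg2, encoding PD-L2, separated the myeloid classes. Microglia-like cells of tumour-bearing libraries held 1 UMI in 177 cells, in KO late. Macrophage-like cells had 22.9 CPM in WT early (13 UMIs in 107 cells), 0 in the 16 cells of WT intermediate, 0 in the 22 cells of WT late, and 123.5, 32.7 and 104.2 CPM in KO early, intermediate and late (49, 12 and 48 UMIs). Pooled, the microglia-like level was 0.0236 times that of macrophage-like cells (0.000592 to 0.134). In the test of macrophage-like against microglia-like cells within libraries, Pdcd1lg2 was the 1 member called of 4 tested (log2 difference 4.38, SE 0.84, edgeR adjusted p 0.000714), while 27.8% of 3519 genes were called, 14.2% as higher. The gene passed the low-count filter through its macrophage-like counts, so its entry to the test depended on the class then called higher. Lag3 was not among the members tested here. With DESeq2 in place of edgeR it was not called, and without WT early, KO early, KO intermediate or KO late it fell under the low-count filter.

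The 3 KO libraries lay above the 3 WT libraries for Pdcd1lg2 in macrophage-like cells. With 3 UMIs worth 35.3 CPM in WT intermediate and 31.2 CPM in WT late, the KO intermediate value of 32.7 CPM could not be told from these zeros at this depth. The log2 difference of KO against WT with stage as a block was 2.91 (SE 0.61, edgeR p 0.000291, adjusted p 0.138), and none of the 5 members tested was called, against 0.0162% of 6173 genes. Without WT early the adjusted p was 0.00288 and without KO early 0.00600, while in both cases the WT libraries still paired by stage were all at 0, so that the fitted difference is no bound. Dendritic cell markers were also higher in the 3 KO than in the 3 WT libraries. The sum of 8 markers in macrophage-like cells was 8.82, 0 and 31.2 CPM in WT early, intermediate and late and 317.6, 46.4 and 47.8 CPM in the KO libraries. Within a genotype the order differed from that of Pdcd1lg2. WT late held more of these markers than WT early but no Pdcd1lg2 UMI. KO intermediate and KO late were alike in the markers but not in Pdcd1lg2. In the macrophage-like cells with no dendritic UMI, Pdcd1lg2 was 22.2, 0 and 0 CPM in the WT and 111.0, 35.9 and 111.9 CPM in the KO libraries. The gene A930007I19Rik overlaps Pdcd1lg2 on the opposite strand. It had 40 UMIs in macrophage-like cells, and its share of the Pdcd1lg2 reads was not tested, since whether the counting used strand is not given in the sources used here. Likewise, AC119228.1 lies opposite Cd274 (not analysed here), and the pseudogene Rpl18-ps1 overlaps Ctla4 on the same strand, with 459 UMIs of its own in lymphocytes and 585 in macrophage-like cells. Reads shared between these genes were not tested. Lymphocytes had Pdcd1lg2 at 44.3 CPM, in 13.9% of cells.

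**Figure D5:**
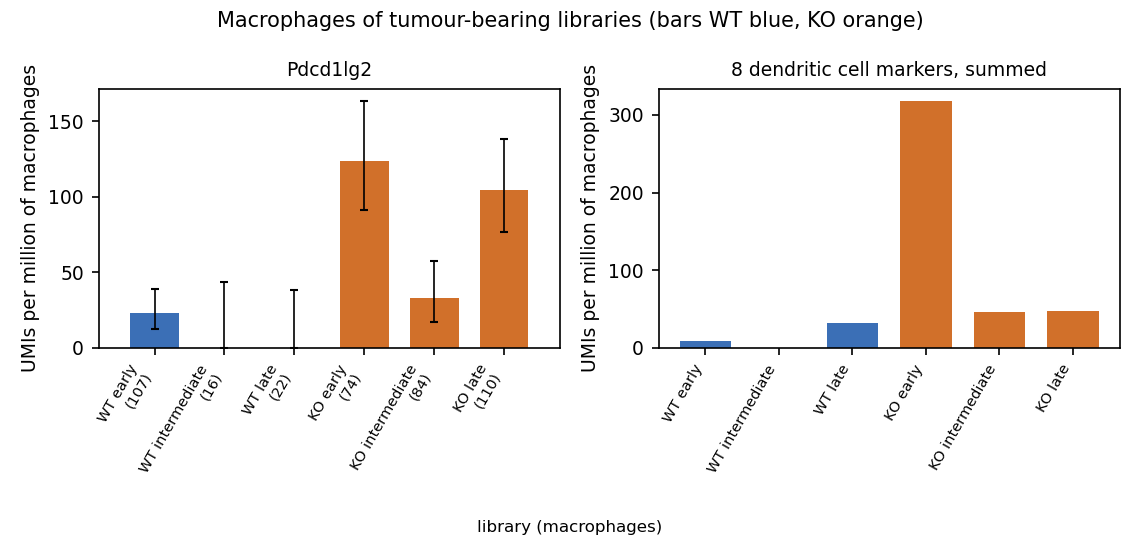
Pdcd1lg2 level (left, with exact 95% Poisson intervals for counting error) and the sum of 8 dendritic cell markers (right) in macrophage-like cells of the 6 tumour-bearing libraries, in CPM of the class, WT in blue and KO in orange. WT intermediate and WT late have no Pdcd1lg2 UMI, and KO early is highest in both panels.

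Cd80 and Cd86, the ligands of Cd28 and Ctla4, differed in their spread. Cd86 was high in both microglia-like and macrophage-like cells. Microglia-like cells had 245.1 and 191.1 CPM in the naïve WT and KO libraries, 316.5, 402.9 and 157.5 CPM in WT early, intermediate and late, and 295.9, 235.5 and 126.1 CPM in the KO libraries, so that naïve values fell inside the tumour-bearing range. Macrophage-like cells ranged from 129.5 to 223.6 CPM over 6 libraries. The pooled ratio of microglia-like to macrophage-like cells was 1.43 (1.19 to 1.72) by counting error, while the test within libraries gave -0.43 log2 units for macrophage-like against microglia-like cells (SE 0.23, edgeR adjusted p 0.185). Cd80 went the other way, with a ratio of 0.274 (0.114 to 0.564). Macrophage-like cells held Cd80 at 56.4, 58.9 and 41.6 CPM in the WT and 40.3, 62.7 and 8.68 CPM in the KO libraries, and KO late was the lowest.

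The 24 dendritic-like cells had the highest level of every ligand, although the KO libraries gave 20 of these cells. Relative to macrophage-like cells, their Cd80 level was 6.92 times (3.91 to 11.6), Cd86 3.02 times (2.04 to 4.32), Cd274 2.48 times (1.61 to 3.67) and Pdcd1lg2 2.38 times (1.06 to 4.67) as high. The unnamed cells came next for these ligands except Cd86, with 72.7 CPM of Cd80, 208.9 of Cd86, 254.3 of Cd274 and 127.2 of Pdcd1lg2. The endothelial class had Cd80 at 40.6 CPM with a tumour, 28.1 times (4.62 to 1153) its naïve level. Of these 26 UMIs, 25 lay in the 40 of 128 cells that carried more mural or fibroblast than endothelial UMIs, at 75.5 CPM against 3.24 CPM in the other 88 cells. Cd274 had 14 UMIs in the former and 12 in the latter, at 42.3 and 38.9 CPM. No member had enough counts for the test across libraries in this class, where 7.64% of 3154 genes were called.

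Besides tumour cells, genotype was tested in 3 classes with the summed counts, and stage in macrophage-like cells. In microglia-like cells none of 3 members tested passed the threshold for KO against WT, with 0% of 3251 genes called (edgeR, 114 genes at an unadjusted p under 0.05). In lymphocytes none of 6 did, with 0.115% of 4343 genes called. There Ctla4 gave a log2 difference of 1.42 (SE 0.75), Pdcd1 0.69 (SE 0.73) and Havcr2 -1.22 (SE 0.68), with edgeR adjusted p of 0.9998 each, in a fit with 1 stage pair of many cells and 1 with the 6 cells of WT intermediate. In macrophage-like cells none of 5 members followed the stage, with 0% of 6173 genes called (edgeR, 347 at an unadjusted p under 0.05). Log2 differences per stage ran from -0.57 (Cd80, SE 0.35) to 0.18 (Havcr2, SE 0.20). In macrophage-like cells Cd274 differed between KO and WT by 0.65 log2 units (SE 0.36), Cd80 by -0.61 (SE 0.51), Cd86 by 0.07 (SE 0.34) and Havcr2 by -0.09 (SE 0.32). None of these was under the threshold, which does not show that the genotypes were alike.

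Against macrophage-like cells, tumour cells were lower in 5 of 7 members tested, with 53.8% of 13295 genes called, 24.2% as lower. Besides Cd274 these were Havcr2 (log2 difference -6.94), Cd86 (-6.56), Cd80 (-6.40) and Pdcd1lg2 (-6.21), with edgeR adjusted p of at most 4.44e-08. Pdcd1 (-0.17, SE 0.99) and Ctla4 (-1.33, SE 0.86) did not pass, being at or under 5.07 CPM in both classes. Havcr2, Cd86, Cd80 and Pdcd1lg2 lay at 1.40, 2.39, 0.58 and 0.82 CPM in tumour cells. They passed the low-count filter through their macrophage-like counts, so their entry to the test depended on the class in which they were higher.

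The other checkpoint genes of the listed pathways were counted in the same tests. Of 12 partner genes, 8 were tested between lymphocytes and macrophage-like cells, a comparison in which 40.8% of all genes were called and 19.6% were higher. Of these, 5 were higher in lymphocytes, led by Icos (7.71 log2 units), a costimulatory receptor, and Cd28 (6.97). A further 3 were lower, among them Lgals3 (-2.36) and Lgals9 (-1.73), the latter a ligand of TIM-3. The median of the tested partners was 3.12 against 0.08 over all genes. Of 25 other checkpoint and costimulatory genes, 15 were tested, 10 higher, with Tnfrsf4 (7.25) and Cd27 (6.72) at the top, and 5 lower, with Sirpa (-6.03) and Cd40 (-4.21) at the bottom (median 1.53). Of 12 transcription factors of exhausted and regulatory T cells, 10 were tested, 6 higher, with Eomes (6.88) and Tox (6.80) at the top, and 1 lower (Prdm1, -1.55).

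Between macrophage-like and microglia-like cells, 6 genes of the list of 25 were tested, and 4 were called, against 27.8% of all genes. Cd47 (0.82) was higher in macrophage-like cells, and Vsir (-1.81), which encodes the checkpoint VISTA, Entpd1 (-1.10) and Sirpa (-0.996) were lower. Vsir was also lower in tumour-bearing than in naïve microglia-like cells (-1.29), the 1 gene called of 5 tested, against 16.5% of all genes called in that comparison. In tumour cells against macrophage-like cells 12 of 14 tested genes of that list were lower, and Cd276 (2.63), encoding the ligand B7-H3, and Cd200 (1.20) were higher (median -3.51 against 0.18 over all genes, of which 53.8% were called). No gene of the 4 lists passed the threshold for KO against WT or for stage.

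The genes whose levels ran most like those of the myeloid members were taken from 14452 genes over 53 sums of a class in a library, as Pearson correlations of log2(CPM + 10), which share libraries and reflect class makeup. For Cd86 these were Ncf1 (0.967), Tyrobp (0.949), Plek (0.942), Aif1 (0.942) and Irf5 (0.939). For Havcr2 they included Parvg (0.971), Lcp2 (0.964), Bin2 (0.960) and Cyth4 (0.959). Cd274 had lower values, led by Cd74 (0.829), H2-Ab1 (0.8), Oas1a (0.8), Phf11b (0.795) and Rel (0.789). Lag3 had fewer than 100 UMIs in these sums and was not ranked.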

How the data were processed

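Gene by barcode tables of 8 libraries were used. The authors deposited raw UMI counts of 3000 barcodes per library, made with the Drop-seq pipeline and not normalized. The submitters' processing notes name bcl2fastq 2.0, STAR and the builds GRCm38 and mm10. The STAR version, the annotation and the use of strand are not given in the sources used here. From these counts, the top 1000 barcodes of each library by UMIs, genes in at least 30 cells (18473 of 32502) and cells with at least 1000 genes were kept. Without the members, 50 principal components of log2(CPM + 1) were taken to tSNE (Rtsne 0.17, perplexity 50) and HDBSCAN (scikit-learn 1.9.0, Python 3.11.15, at least 19 cells, unassigned cells by 15 neighbours), and clusters were named from fixed markers. Of the kept cells, 9 carried 1 of 2 barcodes found in more than 1 library. Doublets were kept and removed with Scrublet (scanpy 1.11.5) in an alternative. It marked under 0.5% of cells in 5 libraries, where the cells with the highest scores were removed, and 9 to 50 cells per library left in this way.

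UMIs were summed per library and class of at least 5 cells and tested with edgeR 4.0.16 (R 4.3.3, TMM, filterByExpr, quasi-likelihood test, Benjamini-Hochberg adjusted p under 0.05 over all genes tested), after tests on simulated data. Comparisons between classes had the library as a block, tumour against naïve the genotype, KO against WT the stage, and stage was entered as 1, 2 and 3. With 1 library per genotype and condition, p-values rest on the spread between these libraries, each of 1 mouse or 1 pool. Ratios between pooled classes carry exact 95% binomial and levels exact Poisson intervals. Floors of 3 counts stand for zeros. Alternatives were DESeq2 1.42.0, no low-count filter, at least 10 cells per sum, all genes in the clustering, Leiden clustering (leidenalg 0.10.2), another tSNE seed, at least 500 genes per cell, and leaving out each library.

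Every member is reported. Of each further list, called genes are named, or the 2 largest and 2 smallest changes where more than 4 were called, and the 5 most alike genes. Some genes that this rule takes are not reported here. Members and lists were chosen with earlier results of these data known, and the comparisons in oligodendrocytes and of genotype in tumour cells were added after seeing the data. Positions are from GENCODE M21 and upstream windows from RefSeq (GRCm38.p6), which held 7 of the 9 members.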

Additional observations from a re-analysis of the deposited data

Results flagged for a closer look

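Members were also counted in the barcodes that were not kept as cells, 13210 in the tumour-bearing and 5092 in the naïve libraries. There Ctla4 reached 28.95 CPM with a tumour (25.5 to 32.7) against 0.350 CPM in naïve libraries, Pdcd1 15.7 CPM against 0.701 CPM, and Tigit 3.03 CPM against 0.350 CPM. Among the ligands, Cd274 was at 46.1 CPM (41.8 to 50.8) against 4.91 CPM, Pdcd1lg2 at 6.28 CPM against no UMI, and Cd80 at 8.19 CPM against 2.45 CPM. Lag3 (5.50 against 15.4 CPM), Havcr2 (28.6 against 63.8 CPM) and Cd86 (32.9 against 49.4 CPM) were lower with a tumour. Which cells these UMIs came from was not tested.

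Cd274 in tumour cells was noted because KO against WT changed sign between stages, with a log2 ratio of -0.35 at the early, 1.87 at the intermediate and 2.59 at the late stage. Each ratio compares 1 library with 1 library, and the difference between stages was not tested.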

How the results depend on the processing

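Groups of genotype and condition could not be paired by replicate because each has 1 library, so that any 2 groups share fewer than 2 replicate numbers. Comparisons between classes were paired within libraries, with the library as the block. Stage or genotype served as the block in the other fits. The call counts that changed were as follows, and the cause was not tested unless named. Tumour-bearing against naïve microglia-like cells gave 0 to 1 called members with each library left out (0 without KO naïve). Macrophage-like against microglia-like cells gave 0 with DESeq2, 3 with no low-count filter (Lag3 lower at -5.19 log2 units, Cd80 at 2.10 and Pdcd1lg2 higher), 3 with at least 10 cells per sum, 2 with at least 500 genes per cell, and 0 to 3 with each library left out (0 without WT early, KO early or KO intermediate, 3 without WT intermediate or WT late). KO against WT gave 1 member in macrophage-like cells (Pdcd1lg2) with no filter and with Leiden clustering, and 0 to 1 with each library left out. In tumour cells it was also 0 to 1. With no filter, which lets more genes be tested, 1 member was called in the endothelial class (Cd80, 4.22) and 1 in oligodendrocytes (Cd274), and 1 in the latter with at least 500 genes per cell. Lymphocytes against macrophage-like cells gave 5 calls with DESeq2 (Cd80 was lost, -1.44, DESeq2 adjusted p 0.0824) and 7 with no filter (Lag3 was added) against 6. They gave 4 to 6 calls and tumour cells against macrophage-like cells 5 in each of the fits without 1 library.

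Signs turned only for differences that passed no test. Havcr2 between lymphocytes and macrophage-like cells became -0.12 with no filter, -0.13 at 10 cells per sum, -0.024 with Leiden clustering, -0.014 with another seed, -0.32 without doublets and -0.081 at 500 genes, and ran from -0.13 to 0.37 with libraries left out. Pdcd1 between tumour and macrophage-like cells became 0.145 with all genes clustered and 0.136 at 500 genes, range -0.36 to 0.066. For stage, Cd86 became -0.032 with no filter, -0.01 with all genes clustered, -0.025 with Leiden clustering and -0.019 without doublets. Ranges with libraries left out were -0.19 to 0.16 for Cd86, -0.001 to 0.37 for Havcr2, -0.54 to 0.007 for Cd274 and -2.09 to 0.054 for Pdcd1lg2. For KO against WT, Havcr2 in macrophage-like cells became 0.023 with no filter (range -0.30 to 0.13), and Cd274 in lymphocytes -0.059 without doublets. Ranges were -0.22 to 0.44 for Cd86 in macrophage-like cells, -0.44 to 0.026 for Havcr2 in microglia-like cells and -0.28 to 1.68 for Cd86 in tumour cells. Other ranges were -0.024 to 0.40 for Cd86 in tumour-bearing against naïve microglia-like cells and -0.93 to 0.012 for Pdcd1lg2 in lymphocytes. Not run, for lack of residual degrees of freedom, was the lymphocyte genotype test at 10 cells per sum and without WT early, WT intermediate, KO early or KO intermediate.

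Depth limits the low receptors most: 3 UMIs equal 172.7 CPM in the 5 microglia-like cells of WT intermediate and 251.9 CPM in the 4 lymphocytes of WT late. With Leiden clustering, Ctla4 in tumour-bearing microglia-like cells went from 0 to 8.54 CPM and in macrophage-like cells from 5.07 to 2.01 CPM.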

Other observations

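Further genes of the lists passed the test with a tumour. In microglia-like cells Lgals3, encoding galectin-3, was higher in tumour-bearing than in naïve libraries (5.16 log2 units, SE 0.88, edgeR adjusted p 0.000735), the 1 partner called of 3 tested. Nr4a1 (2.799) and Nr4a3 (7.67), immediate-early transcription factors, were both higher, the 2 tested of their list, against 16.5% of all genes called in this comparison. In the endothelial class Nr4a1 (3.10) and Nr4a2 (2.24) were higher, 2 of 3 tested, against 7.64% of all genes called.

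Between macrophage-like and microglia-like cells Lgals3 (2.89), Nr4a2 (2.20) and Nr4a3 (0.90) were higher in macrophage-like cells, and none of 5 interferon gamma axis genes passed the test (edgeR), against 27.8% of all genes called. In lymphocytes against macrophage-like cells 3 genes of that axis were higher, Ifng (8.08) and Ifngr1 (1.83) most, and 3 were lower, Ifngr2 (-3.89) most, of 7 tested, against 40.8% of all genes called. In tumour cells against macrophage-like cells 5 of 6 of these genes were lower, with Ifngr2 (-3.88) the lowest, against 53.8% of all genes called. There 3 of 7 partners were lower (Icosl -3.83, Lgals3 -2.04 and Lgals9 -1.13), and of 8 transcription factors 2 were higher (Tox 6.59 and Tcf7 4.52) and 5 lower (Prdm1 -5.60 and Nr4a3 -5.29 most).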
